A study of Mus musculus with 6 samples.

Results

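A set of 41 type I interferon-stimulated genes was followed in challenged ear skin of 6 mice, array by array. The genes were given as a list of names, and each was read at its brightest probe set over the 6 arrays, among probe sets that the platform annotation pairs with a single gene. Of the 41 genes, 39 were measured, out of 19938 genes in all. Isg15, which encodes a ubiquitin-like protein, lay only on a probe set listed with several genes, and Ifi44 had no listed probe set, so neither is given a value. Every measured gene of the set rests on a single probe set.

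The study used contact hypersensitivity to fluorescein isothiocyanate (FITC), a reactive dye that sensitises skin, in mice aged 10 to 12 weeks. The 3 CLEC4C-DTR mice (genotype CLEC4C-DTR/+) carried a diphtheria toxin receptor transgene driven by CLEC4C, a human gene of plasmacytoid dendritic cells, and the 3 littermate controls did not. All 6 mice were given 200 ng of diphtheria toxin on days -1, 1, 3 and 5, were painted with 100 µL of 0.5% FITC in acetone and dibutyl phthalate on the abdomen on days 0 and 2, and received 20 µL on the right ear on day 6. Each array held RNA from the whole skin of 1 FITC-treated ear of 1 mouse, and solvent-treated ears and mice without toxin were not analysed here. The design therefore compares genotypes within toxin-treated, sensitised and challenged animals. Toxin was given by injection and not to the skin alone. In whole skin, fewer cells of a type and less RNA per cell cannot be told apart. Of 9 genes of keratinocytes, dermis and vessels read as a check of the tissue, the keratinocyte gene Krt14 lay between 12.01 and 12.22 (log2) on the 6 arrays. The mean level of the 9 was 9.53 to 10.13 in CLEC4C-DTR mice and 10.03 to 10.24 in controls. The lowest, 9.53, was that of CLEC4C-DTR mouse 2, which read lowest of the 6 mice in Krt5, Krt10, Lor, Flg2 and Col1a1. The vessel gene Pecam1 rose (0.40, adjusted p = 0.0312), 0 fell, and 2 (Krt10 and Flg2) were lower at an unadjusted p under 0.05. Differences among the others ran from -1.72 in the cornified layer gene Flg2 (adjusted p = 0.0803) to 0.46 in Krt1 (adjusted p = 0.402). Values are log2, and those of 3 mice are given in the order of their replicate numbers.

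Type I interferons are secreted cytokines, the interferon alphas, interferon beta and relatives, that cells make when receptors for foreign or misplaced nucleic acid are triggered. They bind the receptor chains IFNAR1 and IFNAR2, whose kinases JAK1 and TYK2 phosphorylate transcription factors that include STAT2. STAT2 and IRF9 are parts of a complex that binds the interferon-stimulated response element in promoters and switches on a large set of genes of antiviral defence. Plasmacytoid dendritic cells are known for making large amounts of type I interferon, while keratinocytes, fibroblasts and many leukocytes respond to it. Many of the same genes also respond to interferon gamma and to interferon lambda.

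Promoters of the set were searched for the core of the interferon-stimulated response element, taken as 2 copies of GAAA with any 2 bases between them, on either strand, where the reverse strand reads TTTC in both places. Windows of 300 bases around the transcription start, 250 before and 50 after it, came from RefSeq (GRCm38.p6). Windows were found for 32 of the 41 genes, and 13 of these held the core (40.6%), against 1079 of 27025 genes with a window (3.99%) and 1131 of all 32851 windows (3.44%). Among measured genes it was found in 3 of the 7 with a window that passed the test below (42.9%) and in 9 of the 23 that did not (39.1%). A match is a description of letters and was not tested as a binding site. The promoters below, with the core in capitals, belong to the 3 genes that passed the test and hold the core, and to the 2 genes with the smallest differences among those that hold it.
Trim30a: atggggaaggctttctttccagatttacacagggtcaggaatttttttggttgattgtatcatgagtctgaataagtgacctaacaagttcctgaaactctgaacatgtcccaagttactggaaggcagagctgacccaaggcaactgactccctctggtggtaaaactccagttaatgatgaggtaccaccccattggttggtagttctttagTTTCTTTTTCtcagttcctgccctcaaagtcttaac
Oas3: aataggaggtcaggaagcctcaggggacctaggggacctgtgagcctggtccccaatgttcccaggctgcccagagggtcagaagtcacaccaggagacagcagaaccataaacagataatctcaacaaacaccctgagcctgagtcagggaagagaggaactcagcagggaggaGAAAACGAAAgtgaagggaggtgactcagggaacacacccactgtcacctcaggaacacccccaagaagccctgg
Oas1a: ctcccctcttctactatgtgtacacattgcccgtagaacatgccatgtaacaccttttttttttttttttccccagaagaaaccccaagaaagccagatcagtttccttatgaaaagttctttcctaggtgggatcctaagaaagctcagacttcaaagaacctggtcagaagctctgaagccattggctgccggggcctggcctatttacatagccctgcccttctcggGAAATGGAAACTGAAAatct
Ifit3: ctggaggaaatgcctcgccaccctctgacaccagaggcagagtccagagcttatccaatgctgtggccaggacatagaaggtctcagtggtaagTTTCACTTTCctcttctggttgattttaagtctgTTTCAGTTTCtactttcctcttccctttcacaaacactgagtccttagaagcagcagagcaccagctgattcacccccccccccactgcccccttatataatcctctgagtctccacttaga
Ifitm3: GAAAAGGAAActtctgaGAAACCGAAA
The Trim30a sequence is chr7:104465194-104465443 on the minus strand, the 250 bases before a start of this gene. Its core begins 36 bases before that start on the opposite strand. Trim30a has another window, chr7:104446076-104446375, with 1 core just after its start, which is not shown. Oas3 lies at chr5:120777660-120777909 and Oas1a at chr5:120907526-120907775, both on the minus strand. The core of Oas3 begins 75 bases before the start, and Oas1a holds 2 overlapping cores that begin 20 and 14 bases before it. For Ifit3 (chr19:34583279-34583528, plus strand) the cores begin 156 and 122 bases before the start. For Ifitm3 (chr7:141010716-141010742, minus strand) the 27 bases shown lie after the start, and the cores begin at bases 3 and 20 of the transcript. Trim30a, Oas3 and Oas1a rose in CLEC4C-DTR skin, while Ifit3 and Ifitm3, with 2 cores each, differed by -0.21 and 0.09 without passing the test.

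Of the 39 measured genes, 10 rose in CLEC4C-DTR skin and 29 did not pass the test (limma, adjusted p under 0.05 over all genes). The 10 included Oas1a, Oas2, Oas3 and Oasl1 of the oligoadenylate synthetase family and the sensor genes Zbp1 and Dhx58. The others were the ubiquitin ligase genes Trim25 and Trim30a, and Epsti1 and Lgals3bp. The 10 make up 25.6% of the set, while 998 of all 19938 genes (5.01%) were called higher. The set is brighter than most genes. In a fit on the 9969 genes above the median level, 12 of 37 genes of the set were called higher, against 10.7% of those 9969. In the other direction 0 genes of the set were called, against 860 of all genes called lower (4.31%). At an unadjusted p under 0.05, 20 genes of the set were higher and 0 lower, against 2435 and 3002 of all 19938 genes. At an adjusted p under 0.05 (limma), median centring of the arrays gave 1150 higher and 644 lower over all genes, against 998 and 860 as reported. Of the 10 genes, Trim30a, Oas3, Oas2 and Zbp1 differed by at least 2-fold, the size the study's design set, as did 1.67% of all genes in the higher direction. The median difference over the 39 was 0.52 and over all genes -0.04, and it ranged from -0.21 (Ifit3) to 1.83 (Rsad2).

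The mean was higher in CLEC4C-DTR skin for 38 of the 39 genes (97.4%), against 41.8% of all genes. Genes of the set shared much of their order among the mice, as given below. Counts of genes, here and above, are therefore not independent readings of the genotype. In 15 genes (38.5%) all 3 CLEC4C-DTR values lay above all 3 control values, as they did in 14.0% of all genes. These 15 were the 10 genes that passed and Oasl2, Irf7, Rsad2, Rtp4 and Sp100. In the other 24 the groups overlapped, and in 0 genes did they separate in the lower direction, against 19.0% of all genes. Sp100 (adjusted p = 0.0502) and Rsad2 (0.0518) lay just outside the threshold, and Trim25 (0.0496) just inside it.

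**Figure D1:**
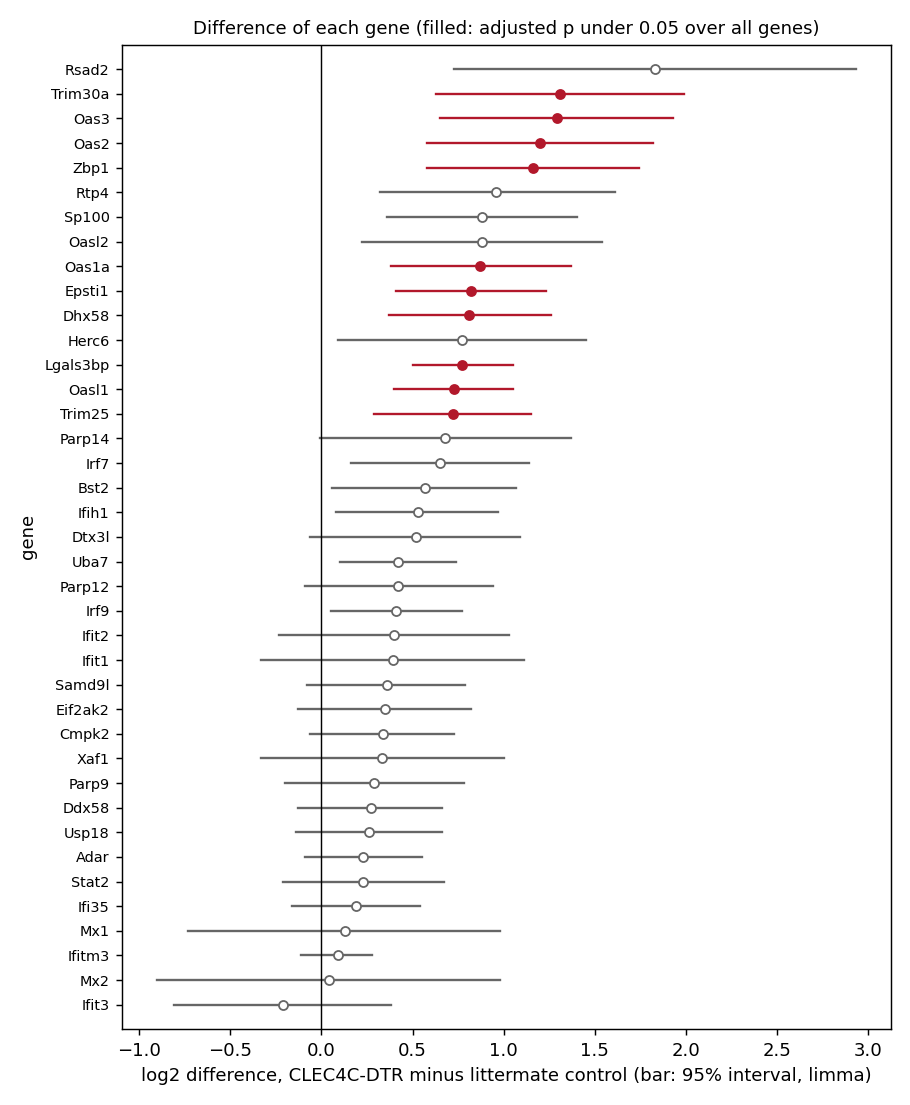
Difference of each of the 39 genes between CLEC4C-DTR and littermate control skin, in log2 units on the x axis, with genes ordered by size on the y axis; bars are limma's 95% intervals and filled red points the 10 genes with an adjusted p under 0.05. All points except that of Ifit3 (-0.21) lie above 0, and that of Rsad2 (1.83) lies farthest from it with a wide bar.

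The control mice differed among themselves in these genes. Control 3 had the lowest of the 3 control values in 39 of 39 genes, against 31.8% of all genes, and control 2 had the highest in 37 (94.9%), against 33.7%. The exceptions were Oasl1 and Rsad2, in which control 1 was the highest. The median distance between the highest and lowest control was 0.81, against 0.49 among the CLEC4C-DTR mice, while over all genes these were 0.20 and 0.23. Set against the mean of the controls, the mean of the set was -0.01, 0.41 and -0.40 in controls 1, 2 and 3, and 0.49, 0.84 and 0.44 in CLEC4C-DTR mice 1, 2 and 3. Control 2 thus reached nearly the level of CLEC4C-DTR mice 1 and 3. In 29 genes (74.4%) all 3 CLEC4C-DTR values lay above controls 1 and 3, against 18.6% of all genes. Of these 29, 14 overlapped only through control 2. Control 2 was set aside here after it was seen to be the highest control in most of the set. Over all genes it was less often the highest, so the 18.6% is not a like background. CLEC4C-DTR mouse 2 had the highest value of all 6 mice in 27 genes (69.2%), against 17.8% of all genes, and control 2 did in 5.

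**Figure D2:**
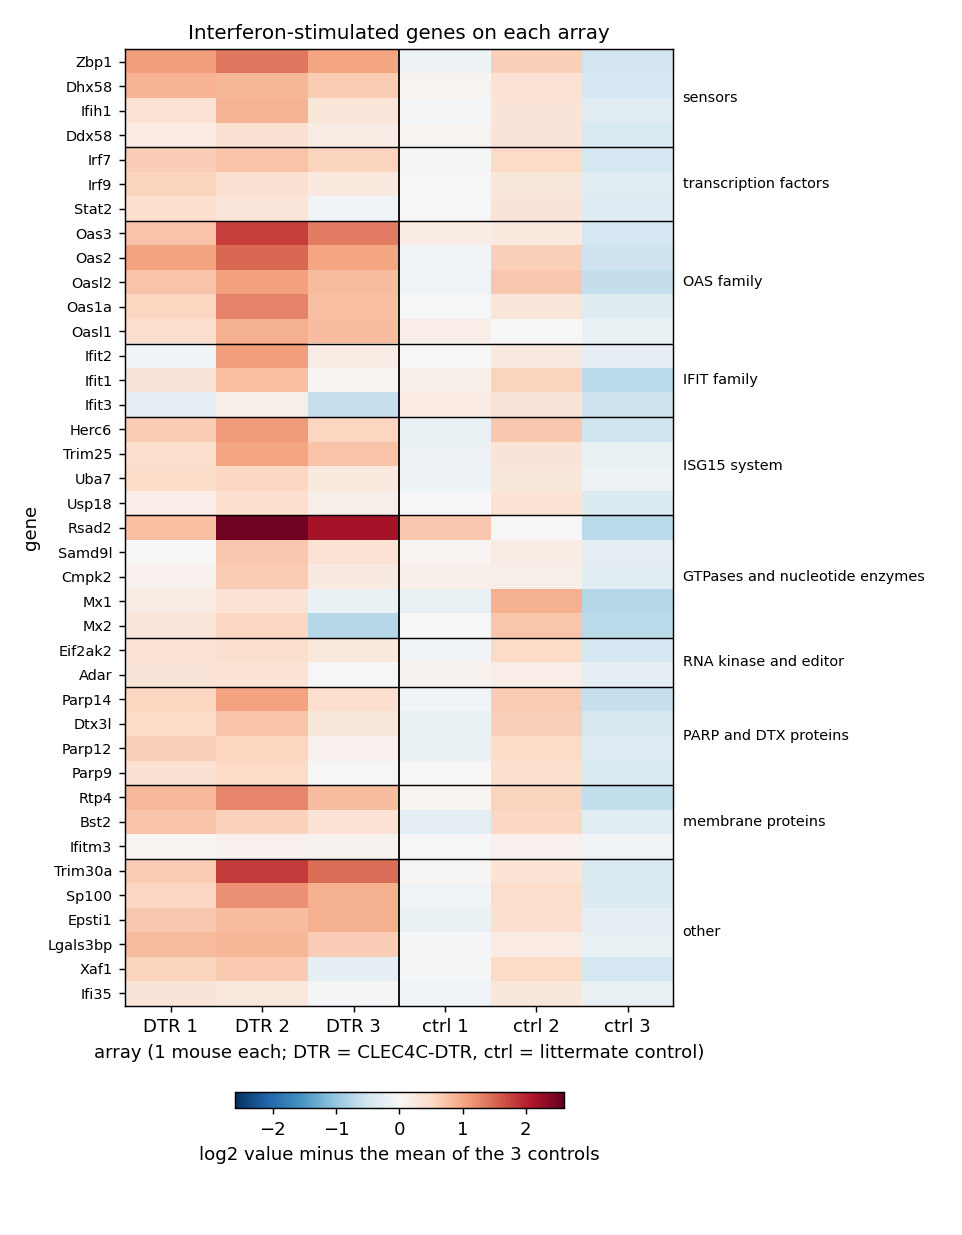
Heat map of the 39 genes (rows, by role) on the 6 arrays (columns, 1 mouse each), coloured by the log2 value minus the mean of the 3 controls. The column of control 3 is below that mean in every row, and the column of control 2 is above it in nearly all of them.

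The count of rises depended on which mice were in the fit. It was 11 without CLEC4C-DTR mouse 1 and 19 without control 2. It was 1 (Lgals3bp) without CLEC4C-DTR mouse 2, and 0 without CLEC4C-DTR mouse 3, control 1 or control 3. At an unadjusted p under 0.05 the count was 20 with all arrays, 21 and 29 in the first pair of these fits, and 15, 23, 15 and 15 in the others in the order given. Over all genes the called rises numbered 1342 and 730 in the first pair, and 289, 70, 108 and 49 in the others. The median difference of the set ran from 0.34 (without control 3) to 0.69 (without control 2), and the 10 genes that passed kept their direction in all 6 fits, as they had to with groups that do not overlap. Some genes that failed with all 6 arrays are given below with an adjusted p under 0.05 without 1 array. They passed in no such fit besides those named. Each such fit also holds fewer arrays, and the part of that in the lost calls was not tested. Leaving out control 2 raises the difference in every gene in which it was the highest control.

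**Figure D3:**
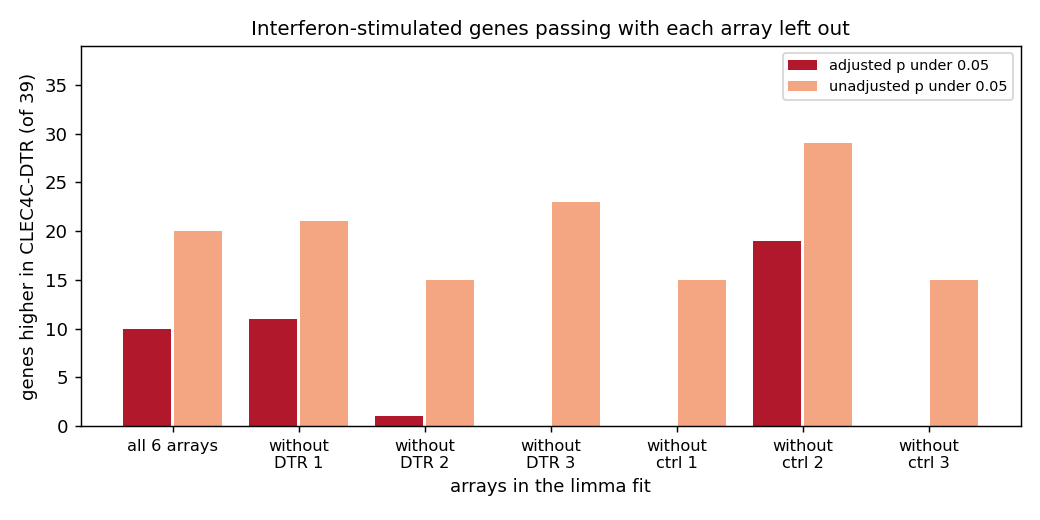
Number of the 39 genes higher in CLEC4C-DTR skin (y axis) in limma fits on all 6 arrays and with each array left out (x axis), with dark bars for an adjusted p under 0.05 and light bars for an unadjusted p under 0.05. The dark bar falls from 10 to 0 in 3 of the fits and grows to 19 without control 2, while the light bars stay between 15 and 29.

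Among the cytosolic nucleic acid sensors, 2 of 4 measured genes rose. Zbp1, which binds Z-form nucleic acid and can start cell death, read 9.51, 9.80 and 9.46 in CLEC4C-DTR mice and 8.28, 9.04 and 7.96 in controls. The groups did not overlap, with control 2 nearest to the CLEC4C-DTR values, and the difference was 1.16 (SE 0.25, adjusted p = 0.0315). Dhx58, which encodes LGP2, a helicase that modulates the RNA sensors, read 7.27, 7.22 and 7.03 against 6.44, 6.74 and 5.90, with a difference of 0.81 (SE 0.19, adjusted p = 0.0408). The groups again stood apart, with control 3 farthest below. Ifih1, encoding the RNA sensor MDA5, differed by 0.53 (adjusted p = 0.129) and Ddx58, encoding RIG-I, by 0.27 (adjusted p = 0.360), and both overlapped through control 2. Zbp1 had an adjusted p of 0.0841 to 0.105, and Dhx58 of 0.0652 to 0.106, in the fits that lost them: both without CLEC4C-DTR mice 2 or 3 or controls 1 or 3, and Dhx58 also without CLEC4C-DTR mouse 1.

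The transcription factor genes of the set did not pass. Irf7, which drives the later wave of interferon alpha production and is made in large amounts by plasmacytoid dendritic cells, read 8.20, 8.31 and 8.15 in CLEC4C-DTR mice and 7.51, 8.09 and 7.12 in controls. All 3 CLEC4C-DTR values lay within a narrow band above the controls, with control 2 only slightly below it (difference 0.65, SE 0.21, adjusted p = 0.0961). The adjusted p was 0.0212 without control 2 and 0.133 to 0.246 with each other array left out. Irf9 and Stat2 encode parts of the complex that binds the response element. They differed by 0.41 (adjusted p = 0.136) and 0.23 (adjusted p = 0.490), with overlapping groups.

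The oligoadenylate synthetases make a second messenger that activates the RNA-degrading enzyme RNase L. Counted with the related Oasl1 and Oasl2, 4 of 5 measured genes of this family rose, and in all 5 the groups did not overlap. Oas3 read 7.02, 8.07 and 7.61 in CLEC4C-DTR mice and 6.46, 6.54 and 5.83 in controls. CLEC4C-DTR mouse 1 was nearest to the controls here, and the difference was 1.29 (SE 0.28, adjusted p = 0.0311, 2.45-fold). Oas2 read 8.62, 9.07 and 8.60 against 7.49, 8.18 and 7.03, with control 2 highest among the controls (1.20, SE 0.27, adjusted p = 0.0350, 2.29-fold). Oas1a read 7.58, 8.32 and 7.81 against 7.02, 7.35 and 6.71 (0.87, SE 0.21, adjusted p = 0.0442). For both, control 3 was the lowest of the 6 mice.

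Oasl1 and Oasl2 are relatives of these enzymes, and OASL1 is known to restrain translation of Irf7 mRNA. Oasl1 read 7.12, 7.58 and 7.47 against 6.84, 6.67 and 6.48, a difference of 0.73 with a small error (SE 0.14, adjusted p = 0.0242). Control 2 was not the highest control for this gene. Oasl2 read 9.37, 9.69 and 9.45 against 8.52, 9.32 and 8.02. Its difference of 0.88 did not pass (SE 0.29, adjusted p = 0.0924), and it passed without control 2 (adjusted p = 0.0188), whose value lay just below the CLEC4C-DTR mice. Without CLEC4C-DTR mice 2 or 3 or controls 1 or 3, the adjusted p was 0.0749 to 0.113 for Oas3, 0.0885 to 0.107 for Oas2 and 0.0969 to 0.153 for Oas1a. For Oasl1 it was 0.0524 to 0.102 in these fits and the fit without control 2.

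**Figure D4:**
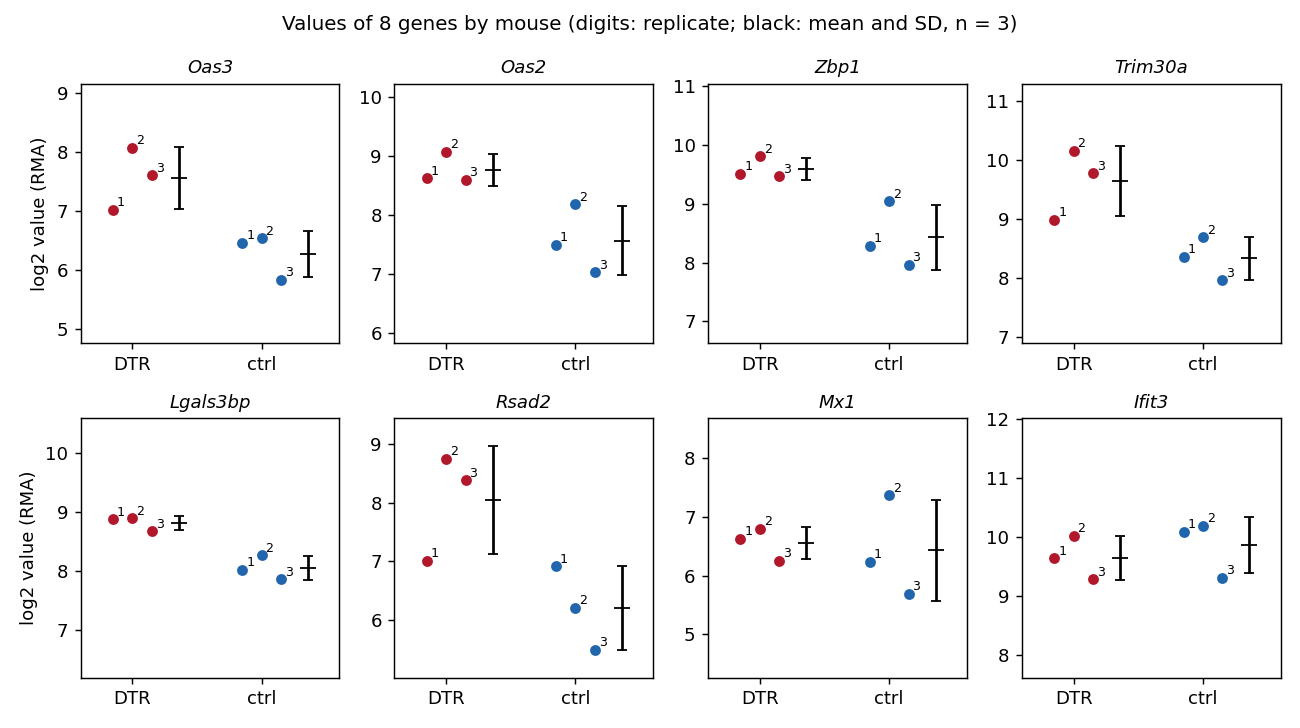
Log2 values (y axis) of Oas3, Oas2, Zbp1, Trim30a, Lgals3bp, Rsad2, Mx1 and Ifit3 in the 3 CLEC4C-DTR (red) and 3 littermate control mice (blue), digits giving the replicate and black bars the mean and SD (n = 3). The groups stand apart in the first 6 genes and overlap in Mx1 and Ifit3, in which control 2 is the highest of the 6 mice.

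The IFIT genes, whose products bind viral RNA and block its translation, did not pass: limma called 0 of 3, 0 reached an unadjusted p under 0.05, and the groups overlapped in all 3. Ifit1 read 8.98, 9.44 and 8.70 in CLEC4C-DTR mice and 8.78, 9.21 and 7.95 in controls (0.39, SE 0.31, adjusted p = 0.467). Ifit2 read 6.88, 8.04 and 7.14 against 6.94, 7.19 and 6.74, so that CLEC4C-DTR mouse 2 alone stood above the controls (0.40, SE 0.27, adjusted p = 0.389). Ifit3 read 9.64, 10.02 and 9.28 against 10.09, 10.19 and 9.31. Controls 1 and 2 were both above every CLEC4C-DTR mouse, and the difference was -0.21 (95% interval -0.81 to 0.38, adjusted p = 0.647). These intervals leave room for differences in either direction.

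ISG15 is attached to proteins by UBA7 and by ligases such as HERC6 in the mouse, is removed by USP18, and TRIM25 is a ligase that also acts on the sensor RIG-I. Of these 4 genes, Trim25 rose. It read 8.59, 9.20 and 8.93 in CLEC4C-DTR mice and 8.04, 8.52 and 8.0 in controls, with the lowest CLEC4C-DTR value close to control 2 (0.72, SE 0.19, adjusted p = 0.0496). Herc6 differed by 0.77 (adjusted p = 0.139), Uba7 by 0.42 (adjusted p = 0.0980) and Usp18 by 0.26 (adjusted p = 0.376). In each of these 3 genes the groups overlapped through control 2, whose Herc6 value of 8.27 lay among the CLEC4C-DTR values of 8.21, 8.66 and 8.10. Without control 2, Herc6 (adjusted p = 0.0258) and Uba7 (0.0389) passed, and Trim25 had an adjusted p of 0.125 to 0.175 without CLEC4C-DTR mice 2 or 3 or controls 1 or 3.

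Rsad2 encodes viperin, an enzyme that makes a chain-terminating nucleotide, and had the largest difference and the largest error of the set. It read 7.01, 8.74 and 8.38 in CLEC4C-DTR mice and 6.92, 6.21 and 5.50 in controls. CLEC4C-DTR mouse 1 lay next to control 1, far below the other CLEC4C-DTR mice, and the difference was 1.83 (SE 0.48, adjusted p = 0.0518, 3.55-fold). Without CLEC4C-DTR mouse 1 it was 2.34 (adjusted p = 0.00705), and in the other fits with 1 array left out the adjusted p was 0.0703 to 0.174. Cmpk2, a nucleotide kinase gene next to Rsad2 on chromosome 12 with no protein-coding gene between them, differed by 0.34 (SE 0.17, adjusted p = 0.247).

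Mx1 and Mx2, dynamin-like GTPases that block virus replication, had small differences between genotypes and a wide spread among mice. Mx1 read 6.62, 6.79 and 6.25 in CLEC4C-DTR mice and 6.23, 7.36 and 5.69 in controls (0.13, SE 0.37, adjusted p = 0.863). Mx2 read 6.75, 6.97 and 5.69 against 6.41, 7.14 and 5.73 (0.04, SE 0.41, adjusted p = 0.963). In both, control 2 was the highest of all 6 mice, and the controls spanned 1.67 and 1.41. The 95% intervals, -0.73 to 0.98 for Mx1 and -0.90 to 0.98 for Mx2, include differences as large as those of genes that passed. Without control 3 the differences were -0.24 and -0.31. Samd9l, an antiviral factor that restrains translation, differed by 0.36 (adjusted p = 0.268).

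Genes of double-stranded RNA control and of ADP-ribosylation had overlapping groups throughout. Eif2ak2, encoding the kinase PKR, differed by 0.35 (adjusted p = 0.324) and the RNA-editing gene Adar by 0.23 (adjusted p = 0.325). Parp14, Dtx3l and Parp9 lie next to each other on chromosome 16, and DTX3L and PARP9 act as a complex. They differed by 0.68 (adjusted p = 0.189), 0.52 (adjusted p = 0.225) and 0.29 (adjusted p = 0.421), and Parp12 by 0.42 (adjusted p = 0.268). Parp14 read 9.31, 9.80 and 9.18 in CLEC4C-DTR mice against 8.68, 9.42 and 8.16 in controls. Control 2 lay among the CLEC4C-DTR mice, and controls 1 and 3 below all of them. Without control 2, Parp14 (adjusted p = 0.0480), Dtx3l (0.0330) and Eif2ak2 (0.0453) passed.

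Of the membrane proteins, Rtp4, a chaperone of G protein-coupled receptors, read 9.85, 10.27 and 9.81 in CLEC4C-DTR mice and 9.09, 9.59 and 8.36 in controls. The groups stood apart, and the difference of 0.96 did not pass (SE 0.28, adjusted p = 0.0702, or 0.0341 without control 2). Bst2 encodes tetherin, which holds budding virus at the cell surface and in the mouse also marks plasmacytoid dendritic cells. It read 9.59, 9.43 and 9.20 against 8.58, 9.38 and 8.55 (0.57, SE 0.22, adjusted p = 0.140, or 0.0218 without control 2). Control 2 lay among the CLEC4C-DTR mice and the other controls well below them. Ifitm3, which blocks virus entry, lay between 12.50 and 12.72 in all 6 mice and differed by 0.09 (SE 0.08, adjusted p = 0.564).

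Trim30a, a ubiquitin ligase known to restrain Toll-like receptor signalling, had the largest difference among the genes that passed. It read 8.99, 10.16 and 9.78 in CLEC4C-DTR mice and 8.36, 8.69 and 7.96 in controls, and only CLEC4C-DTR mouse 1 lay near the controls (1.31, SE 0.29, adjusted p = 0.0352, 2.47-fold). Lgals3bp, a secreted glycoprotein that binds galectins, read 8.88, 8.90 and 8.68 against 8.02, 8.27 and 7.86. Both groups were tight, and its difference of 0.77 had the smallest p of the set (SE 0.12, adjusted p = 0.0160). Epsti1, first known as a gene of epithelial and stromal interaction, read 7.68, 7.78 and 7.90 against 6.79, 7.41 and 6.71 (0.82, SE 0.18, adjusted p = 0.0329).

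Sp100, a protein of nuclear bodies, read 8.89, 9.54 and 9.28 against 8.26, 8.82 and 8.01 (0.88, SE 0.23, adjusted p = 0.0502). The lowest CLEC4C-DTR value lay just above control 2. Xaf1, a gene that promotes cell death, differed by 0.33 (adjusted p = 0.505) and Ifi35 by 0.19 (adjusted p = 0.475), with overlapping groups. Sp100 passed without CLEC4C-DTR mouse 1 (adjusted p = 0.0236) or control 2 (0.0286). Without CLEC4C-DTR mouse 3 or controls 1 or 3 the adjusted p was 0.0526 to 0.0724 for Lgals3bp. In these fits and the fit without CLEC4C-DTR mouse 2 it was 0.0866 to 0.134 for Trim30a and 0.0837 to 0.121 for Epsti1.

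Genes upstream of the set were read from a list of 55 genes of interferon production and signalling, of which 49 were measured. Of these, 8 rose (16.3%, against the 5.01% of all genes), 0 fell and 41 did not pass, with 18 higher and 0 lower at an unadjusted p under 0.05. The genes for type I interferons themselves did not pass: of 14 measured, 0 were called, 0 reached an unadjusted p under 0.05 and 3 had a higher mean, with a median difference of -0.13. Ifnb1, the gene of interferon beta, read 3.87, 3.78 and 4.03 in CLEC4C-DTR mice and 3.85, 3.69 and 3.78 in controls (0.12, SE 0.09, adjusted p = 0.462). No background measure is given for these arrays, so a low value cannot be called present or absent. Ifng, the gene of interferon gamma, read 7.05, 8.33 and 6.00 against 5.55, 7.24 and 5.46. It varied widely in both groups, with mouse 2 the highest of each (1.05, SE 0.63, adjusted p = 0.331).

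Both chains of the type I interferon receptor rose by a modest amount. Ifnar1 read 8.42, 8.55 and 8.29 in CLEC4C-DTR mice and 7.95, 8.05 and 7.86 in controls (0.46, SE 0.10, adjusted p = 0.0293). Ifnar2 read 9.73, 9.95 and 9.63 against 9.30, 9.42 and 9.33 (0.42, SE 0.10, adjusted p = 0.0413). The controls were close together in both genes. The receptor's kinase genes Jak1 and Tyk2 differed by 0.21 (adjusted p = 0.152) and 0.23 (adjusted p = 0.331). Jak2, a kinase of the interferon gamma receptor, differed by 0.51 (adjusted p = 0.0665, or 0.0457 without control 2), and Il10rb, a receptor chain shared by interferon lambda, by 0.49 (adjusted p = 0.0563, or 0.00837 without CLEC4C-DTR mouse 1). Ifngr2, a chain of the interferon gamma receptor, differed by 0.25 (adjusted p = 0.0751). Without CLEC4C-DTR mice 2 or 3 or controls 1 or 3 the adjusted p was 0.0632 to 0.121 for Ifnar1, and in these fits and the fit without control 2 it was 0.0657 to 0.146 for Ifnar2.

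Of 13 measured genes of sensors and adaptors, 3 rose (Tlr8, Unc93b1 and Myd88) and 10 did not pass. Tlr8, an endosomal RNA receptor, read 5.47, 5.93 and 5.90 against 4.39, 5.01 and 4.62 (1.10, SE 0.18, adjusted p = 0.0175). Unc93b1, the chaperone that carries these receptors to endosomes, read 8.32, 8.24 and 8.39 against 7.38, 7.75 and 7.37 (0.82, SE 0.12, adjusted p = 0.0142). The adaptor gene Myd88 rose by 0.79 (SE 0.18, adjusted p = 0.0365). The endosomal RNA receptor genes Tlr7 and Tlr3 differed by 0.21 (adjusted p = 0.471) and -0.19 (adjusted p = 0.524). Of 5 measured transcription factor genes, 1 rose, Irf5, by 0.62 (SE 0.14, adjusted p = 0.0341). Tlr9, the DNA receptor of the same compartment, differed by 0.45 (adjusted p = 0.0512, or 0.0242 without control 2). Irf1, a transcription factor gene that responds strongly to interferon gamma, read 10.17, 10.49 and 10.05 against 9.06, 9.93 and 8.65 (1.02, SE 0.29, adjusted p = 0.0669, or 0.0157 without control 2). Here too control 2 lay nearest to the CLEC4C-DTR mice and control 3 farthest from them. Without CLEC4C-DTR mice 2 or 3 or controls 1 or 3 the adjusted p was 0.0522 to 0.0807 for Tlr8, 0.0983 to 0.127 for Myd88 and 0.0691 to 0.117 for Irf5. For Unc93b1 it was 0.0559 to 0.0723 without CLEC4C-DTR mouse 3 or controls 1 or 3.

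Among inhibitors of the pathway, Socs3, which blocks JAK kinases under several cytokine receptors, rose by 1.15 (SE 0.27, adjusted p = 0.0397). Trex1, a nuclease that removes cytosolic DNA, rose by 0.74 (SE 0.16, adjusted p = 0.0301), and Socs1 differed by 0.39 (adjusted p = 0.0507). Without CLEC4C-DTR mice 2 or 3 or controls 1 or 3 the adjusted p was 0.111 to 0.146 for Socs3 and 0.0869 to 0.0988 for Trex1. The count of rises in the pathway list was 9 without CLEC4C-DTR mouse 1, 15 without control 2 and 1 (Unc93b1) without CLEC4C-DTR mouse 2. It was 0 without CLEC4C-DTR mouse 3, control 1 or control 3.

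A further list of 40 interferon-induced genes outside the set was read in the same way. Of 34 measured genes, 6 rose (17.6%, against the 5.01% of all genes), 0 fell, and 28 had a higher mean. The median difference was 0.35. At an unadjusted p under 0.05, 14 were higher and 1, Ifi27, was lower (-0.21). Ifitm1, a membrane protein that blocks virus entry, read 11.18, 12.22 and 12.10 in CLEC4C-DTR mice and 9.91, 10.00 and 9.48 in controls (2.04, SE 0.27, adjusted p = 0.0116, 4.11-fold). Ifitm2 rose by 0.48 (SE 0.10, adjusted p = 0.0303), so Ifitm1 and Ifitm2 passed while Ifitm3, of the same family, differed by 0.09. Ifitm1 has 2 single-symbol probe sets and Ifitm2 has 3, each read at the brightest, while Ifitm3 has 1. Whether the members differ from each other was not tested.

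The exonuclease gene Isg20 read 7.27, 8.49 and 8.31 against 6.98, 6.75 and 6.53 (1.27, SE 0.29, adjusted p = 0.0372). The RNA helicase gene Mov10 rose by 0.58 (SE 0.11, adjusted p = 0.0218). Ddx60 (0.71, adjusted p = 0.0499) and Helz2 (0.68), further helicase genes, passed only just. Slfn8 differed by 1.02 (adjusted p = 0.0583, or 0.0496 without CLEC4C-DTR mouse 1 and 0.0299 without control 2) and Slfn5 by 0.72 (adjusted p = 0.108, or 0.0337 without control 2). The chemokine gene Cxcl11 differed by 1.02 (adjusted p = 0.117) and Shisa5 by 0.28 (adjusted p = 0.124). Set against the control mean, the list averaged 0.39, 0.65 and 0.22 in CLEC4C-DTR mice and -0.09, 0.37 and -0.27 in controls, so control 2 was again the highest control and control 3 the lowest. The count of rises in this list was 7 without CLEC4C-DTR mouse 1, 9 without control 2, 1 (Ifitm1) without CLEC4C-DTR mouse 2 or control 1, and 0 without CLEC4C-DTR mouse 3 or control 3.

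Most markers of neutrophils and of monocytes and macrophages rose with the genotype beside these genes, and most markers of other leukocytes did not pass; called higher were 5.01% of all genes. Of 11 neutrophil markers 8 rose, and the list's mean level was 8.09 to 9.32 in CLEC4C-DTR mice and 6.87 to 7.17 in controls. Of 9 monocyte and macrophage markers 7 rose, with 8.93 to 9.32 against 7.86 to 8.29. T cell markers (1 of 6 rose, Cd2) lay at 7.08 to 7.41 against 6.55 to 6.81. All 6 had higher means, and 5 were higher at an unadjusted p under 0.05, as were 2435 of all 19938 genes. In 5 (83.3%) the CLEC4C-DTR values lay above all controls, against 14.0% of all genes. NK and cytotoxic cell markers (1 of 6 rose, Nkg7) lay at 5.90 to 6.45 against 5.52 to 6.09, with overlapping groups, and 2 of the 6 had lower means. Of 7 markers of conventional dendritic and Langerhans cells, 2 rose (Itgax and Clec9a) and 4 had lower means, with list levels of 6.02 to 6.14 against 5.71 to 5.85. The part of these cell markers in the differences of the interferon-stimulated genes was not tested.

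The order of the mice differed between lists. Neutrophil markers, set against the control mean, were at 1.02, 2.25 and 2.09 in CLEC4C-DTR mice 1, 2 and 3 and at 0.09, 0.10 and -0.20 in controls. The controls were close together there, while the interferon-stimulated genes spread them from -0.40 to 0.41. NK and cytotoxic cell markers were at -0.16, 0.37 and -0.21 in controls, and monocyte and macrophage markers at -0.19, 0.24 and -0.05, with control 2 the highest in both. Of 10 plasmacytoid dendritic cell markers 0 passed. At an unadjusted p under 0.05, 0 were higher and 2 (Tcf4 and Smim5) lower, and 3002 of all 19938 genes were lower. The list's mean level was 6.92 to 6.99 in CLEC4C-DTR mice and 7.06 to 7.11 in controls. It joins genes of unlike levels, such as Ly6d at 11.14 to 11.50 and Spib at 4.83 to 5.26 over the 6 mice. Siglech, a marker of these cells in the mouse, read 5.42, 5.52 and 5.46 against 5.68, 5.41 and 5.84. With no background measure, low values such as these cannot be called present or absent.

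**Figure D5:**
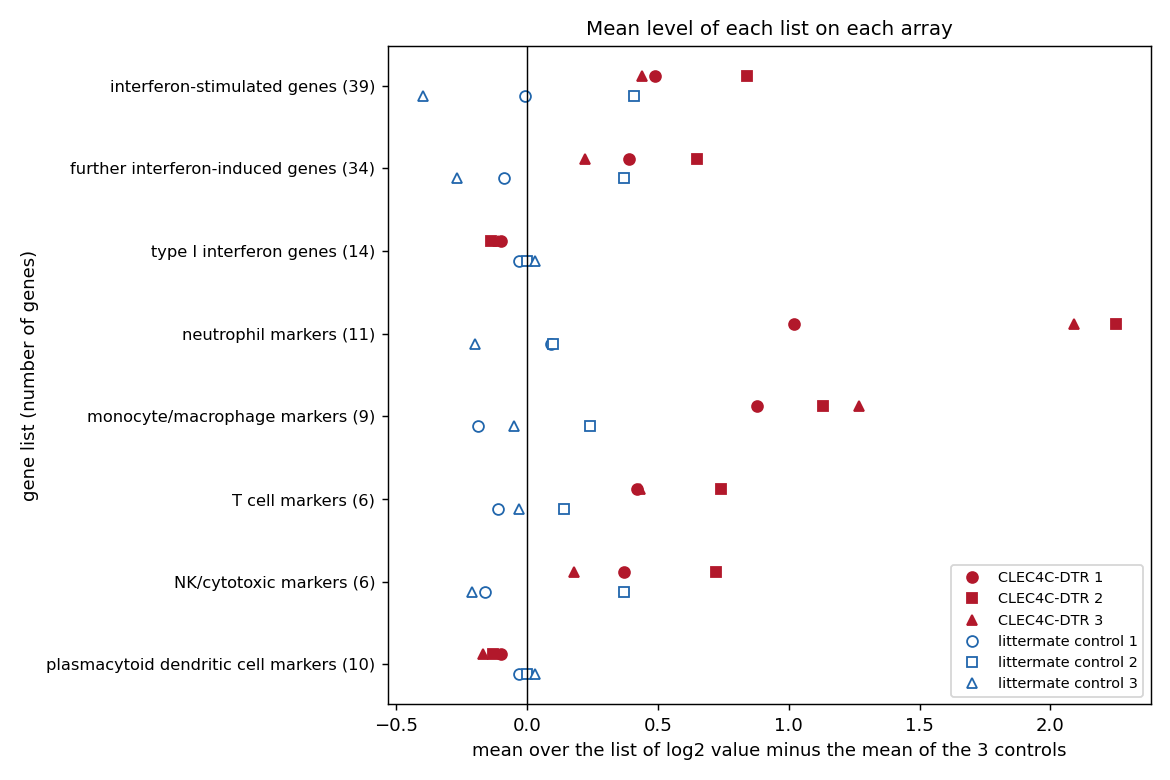
Mean of each gene list on each array (x axis, log2 value minus the mean of the 3 controls), with red symbols for the 3 CLEC4C-DTR and blue for the 3 littermate control mice, and lists with their numbers of genes on the y axis. In the interferon-stimulated genes control 2 (0.41) lies close to CLEC4C-DTR mice 1 and 3 (0.49 and 0.44), while in the neutrophil markers all controls lie far below all CLEC4C-DTR mice.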

How the data were processed

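Whole-skin RNA of 6 ears was hybridised to Affymetrix Mouse Gene 1.0 ST arrays, per the labels. The authors deposited RMA output, which is on a log2 scale (background correction, quantile normalisation and a summary of each probe set); the method is named in the series' design text. The log2 scale was read from the values, 1.60 to 13.94. The software was not given in the sources used here. Quantile normalisation hides a shift shared by most genes, and RMA compresses differences of dim genes.

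Of 35556 probe sets, 21789 carry 1 gene symbol in the platform annotation, 1621 several, and 12146 are not listed. The brightest single-symbol probe set stood for each of 19938 genes. Entrez identifiers of 21698 probe sets matched RefSeq (GRCm38.p6), used for names, neighbours and promoters. limma 3.58.1 (R 4.3.3) compared 3 CLEC4C-DTR with 3 littermate control mice, two-sided, without covariates, and p-values were adjusted by Benjamini-Hochberg over the 19938 genes. The SE given is limma's. limma was also run on simulated data, with independent values and variances drawn from its own fitted model. Such data lack differences that many genes share within a mouse, so they do not bear on calls that rest on those. Cross-reading of probes between close relatives, such as the Oas1 or Ifitm genes, was not tested. The small number of arrays limits the precision.

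The members, lists, tests and alternatives were chosen with earlier results of these data known. All 41 members are named; of the pathway and further lists, the genes that passed and at most 8 others by smallest p, besides Ifnb1, Ifng, Ifnar1, Ifnar2, Jak1, Tyk2 and Irf1. Tlr3, Tlr7 and the marker genes named were picked after their values were seen. Figures used matplotlib 3.10.9.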

Additional observations from a re-analysis of the deposited data

How the results depend on the processing

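With 3 mice a group, the calls depended on the fit. The parts of a single mouse and of fewer arrays in the lost calls were not told apart. Of the 39 interferon-stimulated genes, 10 rose as reported, and 0 to 19 with 1 array left out; 0 were called lower in any fit. The pathway list had 8 rises and 0 to 15 with 1 array left out, and the further list 6 and 0 to 9. Trend and robust moderation left 4 rises in the set and 3 in the further list (4.45% of all genes). Without moderation of variances 0 of all genes were called, the 3 lists included, and when all 35556 probe sets were tested the lists had 0 rises and all genes 0.246% (limma, with 11 and 20 genes of the set at an unadjusted p under 0.05). A replicate block gave 17, 15 and 11 rises (5.81% of all genes). Over all genes, deviations of same-numbered mice correlated at -0.06, 0.217 and 0.104, and the numbers were not taken as pairs. Pairing within the set was not tested. There, CLEC4C-DTR mouse 2 was the highest of all mice in 27 genes and control 2 the highest control in 37. Median centring, a further quantile normalisation, genes above the median level, array weights and the mean of a gene's probe sets moved the set's count to between 9 and 12, and the mean of probe sets left 4 rises in the further list. The set's median difference stayed between 0.34 and 0.69 in every fit. Within the set, differences that changed sign belonged to genes that did not pass: Mx1 (0.59 without control 2 and -0.24 without control 3), and Mx2 (0.43 without CLEC4C-DTR mouse 3), at -0.07 with array weights, -0.10 without CLEC4C-DTR mouse 1, -0.21 without CLEC4C-DTR mouse 2 and -0.31 without control 3. The cause of these changes was not tested.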
